A study of Oryza sativa with 16 samples.

Results

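The genes followed here through panicle initiation in rice (Oryza sativa) control panicle branching and the formation of spikelets: TAW1 (OS10G0478000, chromosome 10), LAX1 (OS01G0831000, chromosome 1) and FZP (OS07G0669500, chromosome 7). They were chosen for their known roles, by identifier, and 3 of 3 were found among the 34302 rows of the authors' expression table. Chromosomes are read from the identifiers. All 3 passed the filter that left 19757 genes for testing (at least 1 FPKM in at least 2 columns). TAW1 and LAX1 reached 1 FPKM in all 8 columns. FZP did so in 4, those of the later stages, so it entered the test only through the stages at which it was high.

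A rice panicle forms when the shoot apical meristem turns into an inflorescence meristem, which sets out branch meristems. These go on to branch or take the fate of a spikelet, the unit that holds the flower. TAW1 encodes a nuclear protein of the ALOG family that keeps the inflorescence branching and delays the spikelet fate. LAX1 encodes a basic helix-loop-helix transcription factor needed to start axillary meristems, from which branches and lateral spikelets arise. FZP encodes an ERF transcription factor that fixes the identity of the spikelet meristem and holds back further axillary meristems in the spikelet.

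RNA came from shoot apical meristems of greenhouse plants aged 3 months, grown for 100 days. Wild type (WT) plants were compared with d1 plants, which carry d1-1, a mutant allele of RGA1. That gene encodes the alpha subunit of the heterotrimeric G protein. No further allele or treatment is labelled for either genotype, and no cultivar is named. Each genotype was sampled at stages labelled 1, 2, 4 and 7, which the labels do not define beyond panicle initiation. Each of the 8 groups had 2 libraries, described as biological replicates, and the table gives 1 value per group in FPKM (fragments per kilobase of transcript, also scaled to library depth). The levels below are those combined values of the authors, without SD or n.

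The columns summed to between 621238 and 670519 FPKM, and the read depth behind a value is unknown beyond the target of about 40 M reads per library in the labels. RGA1 (OS05G0333200, an identifier taken from general knowledge) ranged from 27.5 to 30.3 FPKM over the WT columns and from 20.9 to 24.1 FPKM over those of d1. The 3 identifiers in the table that were written down for meristem homeobox genes, which mark meristem tissue, had 39.2 to 478 FPKM. Of 13 identifiers written down for photosynthesis genes, which mark leaf, 8 were in the table, and 0 of the 8 were listed at 0 in any column. In order of stage, their summed level in WT was 20.0, 76.0, 23.3 and 54.0 FPKM. The d1 sums were 83.9, 35.5, 43.3 and 44.9 FPKM. At stage 1 this leaf signal was higher in d1 and at stage 2 it was higher in WT, and the part of leaf tissue in the results below was not tested. In such tissue, fewer cells that express a gene and less RNA per cell cannot be told apart.

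The order of events over the stages was examined first. TAW1 was already lower at stage 2 and fell further to stage 4, LAX1 fell at the step from stage 4 to 7, and FZP rose between stages 2 and 4. Over the whole series, from stage 1 to stage 7, TAW1 and LAX1 fell and FZP rose, in both genotypes. All 3 changes passed the test over all genes (limma on log2(FPKM + 1) with genotype and stage as terms, adjusted p under 0.05). FZP was tested only through the stages at which it was high, so its rise is given as a description. With no filter on low values its adjusted p was 0.0027 (limma). Among all 19757 tested genes, 14.2% fell and 13.9% rose by this test. Its standard error rests on how far a stage change differs between WT and d1, not on the spread between libraries or plants.

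**Figure D1:**
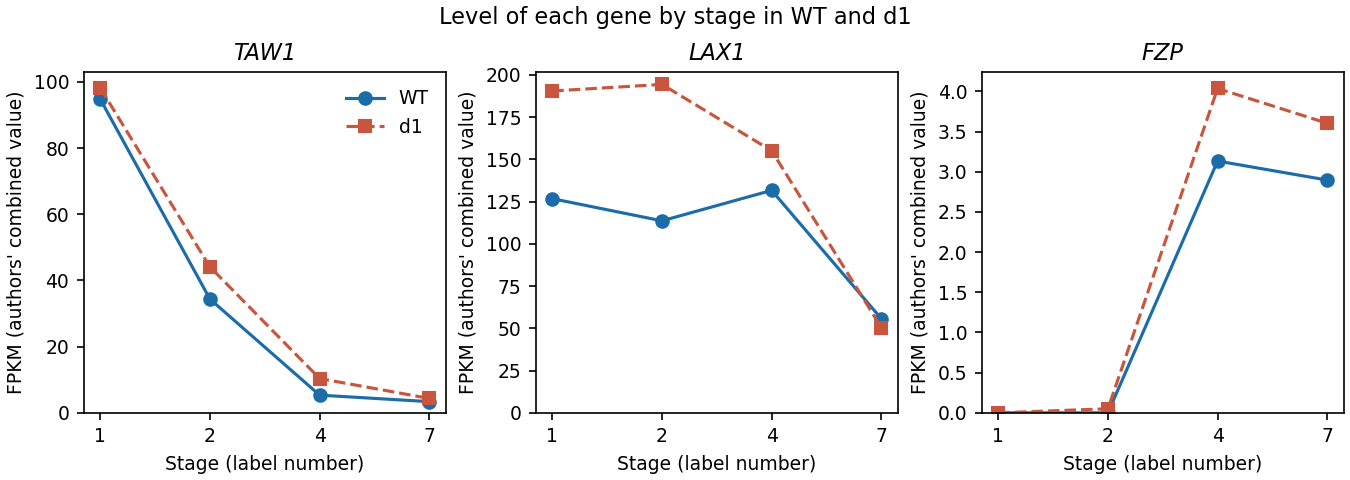
Level of TAW1, LAX1 and FZP in FPKM (linear axes from 0, 1 panel per gene) against the stage number of the labels, evenly spaced, with circles and solid lines for WT and squares and dashed lines for d1. Each point is the authors' combined value for 1 group, so there are no error bars. TAW1 is near 95 FPKM at stage 1 and under 5 FPKM at stage 7, LAX1 is higher in d1 than in WT until stage 4, and FZP is at or near 0 until stage 2.

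TAW1, the gene that delays the spikelet fate, began in WT at 94.8 FPKM at stage 1 and went through 34.4 and 5.35 FPKM at stages 2 and 4 to 3.38 FPKM at the last. Its successive d1 levels were 98.2, 44.1, 10.4 and 4.35 FPKM. Each later stage was lower than the one before in both genotypes, a shape shared by 1118 of the tested genes (5.66%). At stage 7 TAW1 kept 3.6% of its stage 1 level in WT and 4.4% in d1. A steady decline to at most 10% of the stage 1 level in both genotypes was seen for 33 genes (0.167%), TAW1 among them; this bound was chosen after the values were seen. On the log2(FPKM + 1) scale 3 tested genes had a larger decrease from stage 1 to stage 7 in WT and 9 in d1.

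The fall of TAW1 was not even. Of the FPKM it lost from stage 1 to stage 7, 66.1% was lost by stage 2 in WT and 57.6% in d1, and 97.8% and 93.6% by stage 4. As a ratio, the step from stage 2 to stage 4 was the largest in both genotypes, to 0.156 of the earlier level in WT and 0.235 in d1. The steps span unequal gaps in stage number, and the labels do not define the stages. Whole steps are therefore ranked here, not rates of fall. The ratios for stage 1 to 2 were 0.363 and 0.449, and for stage 4 to 7 they were 0.632 and 0.419. In WT the last step was thus the smallest. In d1 the first and last steps were close, and their order turned with the scale: as a ratio the first was the smaller, and on the log2(FPKM + 1) scale the last was (-1.14 at the first and -1.09 at the last).

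In the fit over both genotypes, the change of TAW1 from stage 2 to stage 4 was -2.23 ± 0.18 (log2, moderated SE, adjusted p = 0.0056, limma), where 2.41% of all tested genes fell. It was -1.93 without the WT column of stage 4 and -2.54 without the d1 column of that stage. In both of these fits the call was only just kept. From stage 1 to stage 2 the change was -1.29 ± 0.18 with a 95% confidence interval of -1.74 to -0.83, but its adjusted p of 0.080 did not pass. Only 0.081% of the tested genes fell by the test at this first step. The last step, from stage 4 to 7, was -0.81 ± 0.18 and did not pass either (adjusted p = 0.081, limma), where 1.97% of all genes fell. Over the whole series the change was -4.33 ± 0.18 (adjusted p = 0.00028, limma).

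**Figure D2:**
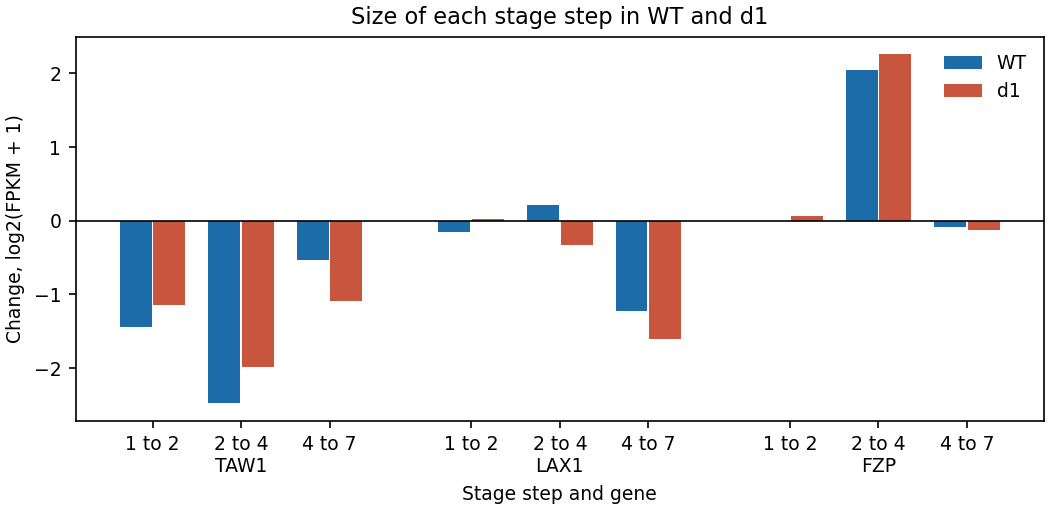
Change of TAW1, LAX1 and FZP at each step between neighbouring stages, as a difference of log2(FPKM + 1), with blue bars for WT and red bars for d1. Each bar comes from 2 combined values and has no error. The largest bars of TAW1 and FZP are at the step from stage 2 to 4 and those of LAX1 at the step from stage 4 to 7.

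LAX1, the gene that starts axillary meristems, was abundant throughout and changed late. Its WT level was 126.7 FPKM at stage 1, then 113.6 and 131.6 FPKM, and 55.7 FPKM at stage 7. The d1 levels at the same stages were 190.4, 194.3, 155.1 and 50.5 FPKM. The highest value was at stage 4 in WT and at stage 2 in d1, and stage 7 was the lowest in both, as it was for 18.2% of the tested genes. At stage 4 LAX1 stood at 103.8% of its stage 1 level in WT and at 81.4% in d1. At stage 7 it was at 44.0% in WT and 26.5% in d1.

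The level of LAX1 moved little over the first 2 steps when both genotypes were fitted together. The changes were -0.06 ± 0.21 from stage 1 to 2, with a 95% confidence interval of -0.60 to 0.47, and -0.06 ± 0.21 from stage 2 to 4, with an interval of -0.59 to 0.48. Their adjusted p were 0.95 and 0.91 (limma). The genotypes went opposite ways in both steps, with -0.16 in WT and 0.03 in d1 at the first and 0.21 in WT and -0.32 in d1 at the second; whether these steps differ between genotypes was not tested, since each group has 1 value. From stage 4 to 7 LAX1 fell by 1.41 ± 0.21 (adjusted p = 0.034, limma). Among tested genes, 122 had a larger decrease at this step in WT and 70 in d1.

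That late fall was close to the threshold. Its adjusted p (limma) was 0.080 without a filter on low values and 0.070 with stage 1 left out. With single columns left out it was 0.070 or 0.069 (WT or d1 at stage 1), 0.25 or 0.21 (stage 4), and 0.051 or 0.0998 (stage 7), and over all alternatives it ran from 0.025 to 0.25. The change itself stayed between -1.75 and -1.08. Over the whole series LAX1 changed by -1.53 ± 0.21 (adjusted p = 0.0062, limma).

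FZP, the spikelet identity gene, showed the reverse course at a low level. In WT it was listed at 0 at stages 1 and 2, then stood at 3.13 FPKM (stage 4) and 2.90 FPKM (stage 7). In d1 it was listed at 0 at stage 1, then at 0.051, 4.04 and 3.60 FPKM. The values of stages 4 and 7 were above those of stages 1 and 2 in both genotypes. How many of all tested genes share that order was not counted. No fold is given against stages 1 and 2, where 3 of the 4 values are listed at 0. A level under 0.1 FPKM at stages 1 and 2 with at least 1 FPKM at stages 4 and 7, in both genotypes, was found for 4 of 19757 tested genes (0.0202%), FZP among them; these bounds were chosen after the values were seen.

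The rise of FZP from stage 2 to 4 was 2.15 ± 0.14 (log2(FPKM + 1), adjusted p = 0.0042, limma), where 3.69% of all tested genes rose. FZP passed the filter only through stages 4 and 7, so a rise was partly built into its being tested. It is given as a description. With no filter on low values the adjusted p was 0.017 (limma). The size of the rise depends on the pseudocount and was 4.90 with 0.1 FPKM added in place of 1. The adjusted p (limma) was 0.062 without the WT column of stage 4 and 0.068 without the d1 column of that stage. At the first step the change was 0.04 ± 0.14 (adjusted p = 0.96, limma), where 0.329% of all genes rose. From stage 4 to 7 it was -0.11 ± 0.14, with a 95% confidence interval of -0.47 to 0.25 (adjusted p = 0.76, limma), where 1.97% of all genes fell. FZP was 92.4% of its stage 4 level at stage 7 in WT and 89.3% in d1.

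The balance between the genes changed with these steps. FPKM is scaled by length, so levels of different genes can be set side by side within a column. LAX1 had 1.34 times the level of TAW1 in WT at stage 1, 3.31 times at stage 2, 24.6 times at stage 4 and 16.5 times at stage 7. In d1 the ratios were 1.94, 4.41, 14.9 and 11.6. TAW1 had 1.71 times the level of FZP at stage 4 and 1.17 times at stage 7 in WT, and 2.57 and 1.21 times in d1. The order LAX1, TAW1, FZP therefore held in all 8 columns. LAX1 ranked above 92.4% to 98.5% of the rows of the table in each column, whereas TAW1 went from above 96.5% at stage 1 to above 55.3% in WT and 58.3% in d1 at stage 7.

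Differences between d1 and WT were examined next. All 3 genes had higher mean levels in d1, and no difference passed the test after adjustment. Averaged over the 4 stages, TAW1 stood at 39.2 FPKM in d1 against 34.5 FPKM in WT. The averages of LAX1 were 147.6 against 106.9 FPKM and those of FZP were 1.92 against 1.51 FPKM. Over the stages the d1 minus WT difference was 0.38 ± 0.13 for TAW1 (log2, 95% confidence interval 0.06 to 0.70, unadjusted p = 0.028, adjusted p = 0.16, limma). It was 0.36 ± 0.15 for LAX1 (interval -0.02 to 0.74, adjusted p = 0.23, limma) and 0.15 ± 0.10 for FZP (interval -0.10 to 0.40, adjusted p = 0.42, limma). The standard errors and intervals of these differences rest on how far each difference varies between the 4 stages, not on the spread between libraries or plants. By the same test 0.157% of all tested genes were higher and 0.086% lower in d1.

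On the log2(FPKM + 1) scale the largest difference was at stage 4 for TAW1 and FZP and at stage 2 for LAX1. For TAW1, the level in d1 was 1.04 times that in WT at stage 1, 1.28 times at stage 2, 1.94 times at stage 4 and 1.29 times at stage 7. The d1 value was higher at 4 of 4 stages, as for 17.8% of the tested genes. The difference at stage 4 was 0.84 on the log2(FPKM + 1) scale, and 247 genes (1.25%) had a larger one in that direction. At stage 4 the leaf signal was also higher in d1, at 43.3 against 23.3 FPKM.

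For LAX1 the ratio of d1 to WT was 1.502, 1.71, 1.18 and 0.906 at the successive stages. The d1 value was higher at 3 of 4 stages and slightly lower at stage 7, a sign pattern found in 7.82% of the tested genes. The differences at stages 1 and 2 were 0.58 and 0.77 on the log2(FPKM + 1) scale, and 4.72% and 3.15% of the genes had larger ones. The summed leaf signal was higher in d1 at stage 1 and lower in d1 at stage 2, though the single photosynthesis identifiers did not all follow the sum. Its part in the LAX1 differences was not tested. FZP in d1 was 1.29 times WT at stage 4 and 1.24 times at stage 7. No library values are given, so none of the differences at a single stage could be tested.

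**Figure D3:**
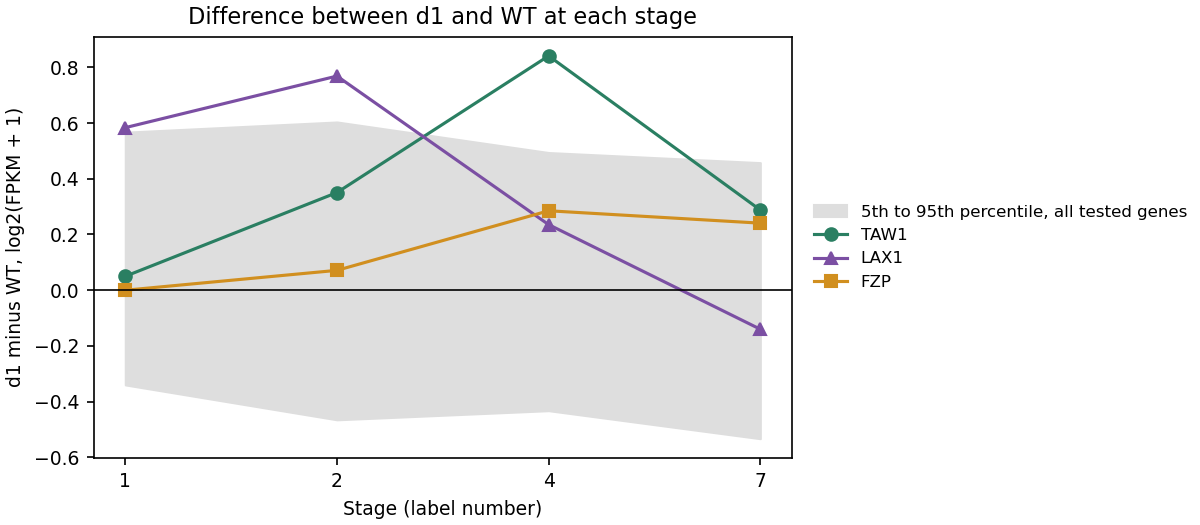
Difference between d1 and WT at each stage for TAW1, LAX1 and FZP, as log2(FPKM + 1) in d1 minus that in WT, against the stage number; the grey band spans the 5th to the 95th percentile of all 19757 tested genes at that stage. Points have no error, since each comes from 1 value per genotype. LAX1 lies above the band at stages 1 and 2, TAW1 at stage 4, and FZP lies within it at every stage.

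Genes of the same pathway were described from lists of identifiers written down from general knowledge. The table does not pair identifiers with gene names, so these genes are given by list. Of 48 identifiers written down for branching, spikelet and MADS-box genes other than the 3 above, 27 were in the table and 24 were tested. From stage 1 to 7, 13 of the 24 fell, 8 rose and 3 did not pass, where 14.2% of all tested genes fell and 13.9% rose. At the 3 single steps 3, 7 and 5 of the 24 fell, beside 0.081%, 2.41% and 1.97% of all tested genes, and 1, 3 and 5 rose, beside 0.329%, 3.69% and 1.91%. Of those that rose from stage 4 to 7 and over the whole series, 3 are floral organ genes that passed the filter only through stage 7. Among those that fell from stage 2 to 4 and over the whole series, an SVP-like MADS-box gene passed it only through stages 1 and 2. The counts at single steps rest on few columns: over all lists, meristem and leaf included, 4, 12 and 12 passed (limma), but 0, 0 and 3 did so without the WT column of stage 4, and 0, 2 and 5 without the d1 column of that stage. Between d1 and WT, 0 of the 24 passed after adjustment (limma), and 3 had an unadjusted p under 0.05.

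Of the 12 tested branching and axillary meristem identifiers, 8 fell and 2 rose from stage 1 to 7 (14.2% and 13.9% of all tested genes), with a median of -0.96 against -0.01 over all tested genes. The deepest falls were those of OS09G0491532, down in WT to 27.3 FPKM (475.6 at stage 1) and in d1 to 30.6 FPKM (470.0 at stage 1; -3.99 ± 0.10, adjusted p = 0.00015, limma), and of OS08G0509600 (-3.42 ± 0.12, adjusted p = 0.00023, limma). Both passed at the step at which TAW1 fell and at the step at which LAX1 fell. OS09G0491532 changed by -0.11 at the first step, by -1.21 at the second and by -2.67 at the third. Of the 5 tested identifiers for spikelet meristem identity and determinacy, 2 rose and 2 fell over the same span, and the median change was 0.20; the shares of all tested genes are those just given. Of these 5, 2 are also on the ALOG list.

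TAW1 belongs to the ALOG family, of which 4 other identifiers were written down and tested. Over the whole series 2 fell and 1 rose, beside 14.2% and 13.9% of all tested genes, and the median change was -0.93. The 2 that fell had changes of -2.06 and -2.11, against -4.33 for TAW1. Both also passed at the step from stage 1 to 2 (-1.13 and -0.85, adjusted p of 0.030 and 0.040, limma), where 0.081% of all tested genes fell. With no filter on low values, 0 members of any list passed at this step. The more abundant of the 2 that fell went in WT from 200.3 through 106.3 and 65.1 to 49.5 FPKM. The one that rose had WT levels of 20.4, 10.03, 2.91 and 102.7 FPKM over the stages and d1 levels of 15.7, 13.3, 6.23 and 87.9 FPKM. It was thus lowest at stage 4 and highest at stage 7 in both genotypes.

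MADS-box transcription factors act beside and after these genes. SVP-like MADS-box genes are reported to be activated by TAW1, and 1 of the 3 identifiers written down for them was in the table. Its WT levels were 4.10, 1.61, 0.33 and 0.10 FPKM, and its d1 levels 5.07, 1.82, 0.66 and 0.43 FPKM, lower at each stage as TAW1 was. Its change was -2.15 ± 0.13 from stage 1 to 7 (adjusted p = 0.00067, limma), and like TAW1 it passed at the step from stage 2 to 4 (-0.87, adjusted p = 0.025, limma) and at neither of the others. Unlike TAW1, it passed the filter only through stages 1 and 2. A fall was thus partly built into its being tested and is given as a description. The only AP1-like identifier in the table rose from stage 2 to 4 (0.78, adjusted p = 0.022, limma), the step at which FZP rose.

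Floral organ MADS-box genes specify the organs inside the spikelet. Of 12 identifiers written down 3 were in the table. All 3 were under 1 FPKM at stages 1, 2 and 4 and passed the filter only through their stage 7 columns, so a rise to stage 7 was built into their being tested and is given as a description. OS04G0580700 reached 49.8 FPKM in WT at stage 7 after 0.15 FPKM at stage 4, and 43.1 FPKM in d1 after 0.19 FPKM. OS09G0507200 was listed at 0 at stage 4 in both genotypes and reached 26.3 FPKM (WT) and 39.04 FPKM (d1) at stage 7. FZP, at 3.13 and 4.04 FPKM, was already present at stage 4.

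**Figure D4:**
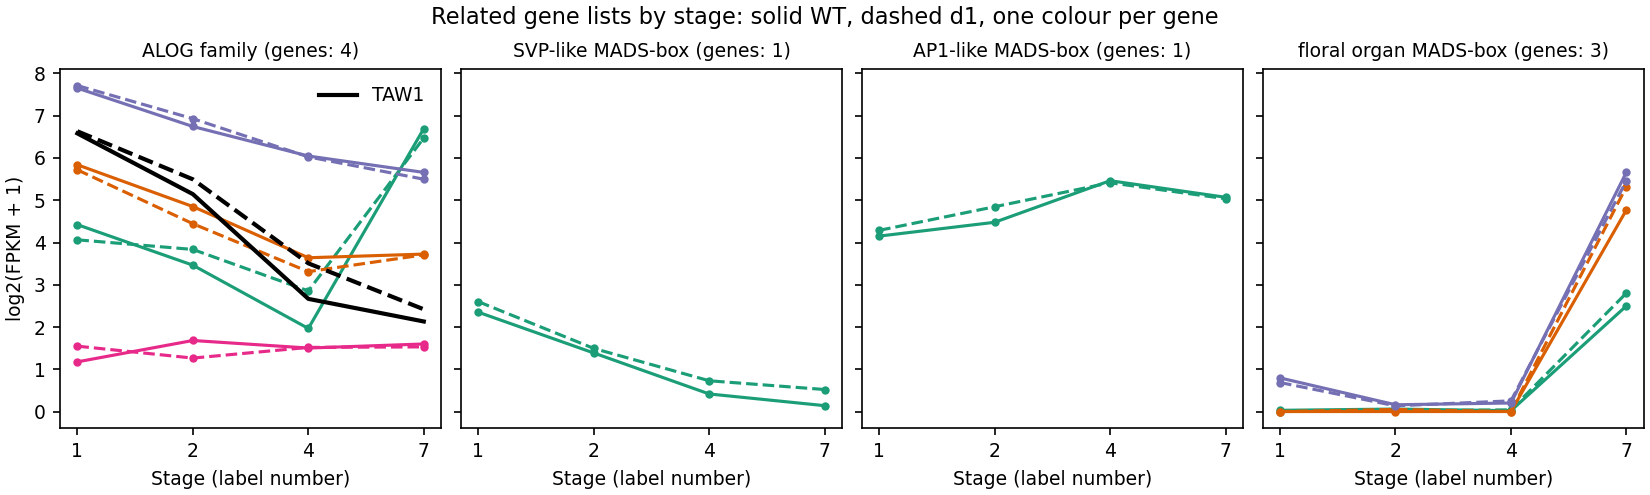
Levels as log2(FPKM + 1) against stage for the tested identifiers of 4 lists: 4 of the ALOG family with TAW1 in black, 1 SVP-like, 1 AP1-like and 3 floral organ MADS-box genes; solid lines are WT, dashed lines are d1, and each colour is 1 gene within a panel. The SVP-like gene declines as TAW1 does, 1 ALOG gene reaches its highest level at stage 7, and the 3 floral organ genes stay under 1 FPKM until stage 4 and are highest at stage 7.

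The genes whose course was most like each of the 3 were found by Pearson's r of log2(FPKM + 1) over the 8 columns, among genes reaching 5 FPKM. These points are 4 stages in 2 genotypes, so r is a description of shape. For TAW1, 400 of 15126 genes had an r of at least 0.95, and the closest were OS08G0485500 (r of 0.998) and OS04G0569900 (r of 0.998). The WT levels of OS08G0485500 were 54.2, 30.4, 8.95 and 6.84 FPKM, and its d1 levels 53.2, 33.4, 14.5 and 7.44 FPKM. As with TAW1, the ratio of d1 to WT was furthest from 1 at stage 4, a likeness favoured by its being chosen for its r over these same columns.

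Fewer genes followed LAX1. An r of at least 0.95 was found for 33 of 15126 genes, and the closest were OS09G0466400 (r of 0.983) and OS02G0451900 (r of 0.983). Over the stages OS09G0466400 stood at 111.0, 94.7, 104.7 and 63.8 FPKM (WT) and at 116.3, 123.9, 113.7 and 57.6 FPKM (d1), a narrower range than that of LAX1. For FZP, 174 of 15127 genes had such an r, and the closest were OS05G0176800 (r of 0.999) and OS04G0409900 (r of 0.993). The WT levels of OS05G0176800 were 0.53, 0.63, 4.45 and 4.52 FPKM and its d1 levels 0.55, 0.76, 5.71 and 5.51 FPKM, so unlike FZP it was not listed at 0 at the early stages.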

How the data were processed

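The 16 libraries were grouped by genotype and stage from their titles alone. The tools named for the deposited table, per the submitters' processing notes, are Cuffdiff, Cufflinks, TopHat2, Trimmomatic and FastQC, without versions, and the build named is IRGSP-1.0. The deposited values were taken as FPKM, a unit inferred from these tools and from the values. Each group has 1 value for its 2 libraries, combined before deposit, so how far libraries differ is not known here, and no count test and no interval or floor from read counts is possible. The identifiers of the 3 genes were given together with their names; the RefSeq gene table (assembly ASM3414082v1, another build) lists LAX1, FZP and G1L5 (TAW1) on the same chromosomes, with 0 overlapping genes each, but does not pair these identifiers with names. No sequence of these genes is shown.

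The 19757 genes that reached 1 FPKM in 2 or more columns were fitted as log2(FPKM + 1), which understates changes of low genes, on genotype and stage over 8 columns, using limma 3.58.1 under R 4.3.3 with a trended eBayes prior. The fit has 3 residual and 2.54 prior degrees of freedom. P-values were adjusted by Benjamini-Hochberg over all tested genes within each comparison. The fit was tested on simulated data. The genes named are the 3, the 2 closest in course to each, and at most 2 listed identifiers that rose and 2 that fell most. The members and lists were chosen with earlier results of these data known.

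Alternatives were a pseudocount of 0.1, no filter, a mean of at least 5 FPKM, median scaling, quantile normalization, array weights, and leaving out each stage or column.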

Additional observations from a re-analysis of the deposited data

Results flagged for a closer look

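Results were marked where WT and d1 moved in opposite directions at a step, or where 1 stage had a d1 minus WT difference opposite in sign to the other 3. Each rests on 1 combined value per group, and none of these differences between genotypes or stages was tested. All concern LAX1. From stage 1 to 2 LAX1 changed by -0.16 in WT and by 0.03 in d1 on the log2(FPKM + 1) scale, a difference of 0.19. From stage 2 to 4 it changed by 0.21 in WT and by -0.32 in d1, a difference of -0.53. At stage 7 its d1 minus WT difference was -0.14, against 0.58, 0.77 and 0.24 at stages 1, 2 and 4.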

How the results depend on the processing

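No paired analysis was possible because the columns carry no replicate number. For TAW1, LAX1 and FZP, 15 changes or differences were refitted under 241 alternatives in all. Of these, 225 kept direction and side of the threshold, 10 lost the call and 6 changed sign. The alternatives are not independent checks. Another filter, or leaving out a stage or column outside a step, could not move the change itself, only its error and adjusted p. Between d1 and WT, leaving out 1 column gave the same difference as leaving out its whole stage. Those that changed sign were small changes that were not called, and came with 1 column left out: over all such fits LAX1 ran from -0.34 to 0.21 at stage 1 to 2 and from -0.33 to 0.21 at stage 2 to 4, and FZP from -0.064 to 0.14 at stage 1 to 2. The values that reversed were 0.21 and 0.08 for LAX1 at stage 1 to 2 (without the WT column of stage 2 or the d1 column of stage 1), -0.016 and -0.064 for FZP there, and 0.21 and 0.03 for LAX1 at stage 2 to 4 (without the d1 column of stage 2 or 4). The calls lost were LAX1 at stage 4 to 7 (-1.41 with no filter, where more genes are tested; -1.75 to -1.08 with a stage or column left out) and FZP at stage 2 to 4 (2.06 to 2.24 with a column left out). Apart from the construction named, the cause was not tested. With a mean of at least 5 FPKM, FZP was not tested.

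The number of genes called over the whole table moved more. With no filter it was 0 at stage 1 to 2 (limma; 2798 at an unadjusted p under 0.05), 652 at stage 2 to 4, 397 at stage 4 to 7 and 7 between genotypes, against 81, 1206, 766 and 48. Between genotypes it was 315 with a mean of at least 5 FPKM, 21 with median scaling and 401 with array weights. With a stage or column left out, which takes away residual degrees of freedom, the counts ran from 0 to 20 (limma; 1368 to 2556 at an unadjusted p under 0.05), from 22 to 1002 and from 19 to 825 at the 3 steps, from 2045 to 5619 over stage 1 to 7, and from 4 to 5 between genotypes. Median scaling changed the split of the calls over stage 1 to 7 from 2739 higher and 2800 lower to 2370 higher and 3286 lower. Called members of all lists, 23 over stage 1 to 7, ran from 18 to 24. At the single steps they ran from 0 to 4, 0 to 12 and 3 to 14, against 4, 12 and 12. By Spearman's rho of at least 0.95, 564, 29 and 196 genes followed TAW1, LAX1 and FZP.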
